A study of Mus musculus with 31 samples.

Results

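Counts of 9 genes that code for mediators of pain at the periphery and for neurotrophic factors were followed in mouse masseter muscle (MM), the large chewing muscle, after intramuscular injection of complete Freund's adjuvant (CFA) or of collagenase type 2 (Col). The genes were taken by name: the prostaglandin enzymes Ptgs1, Ptgs2 and Ptges, the kinin receptors Bdkrb1 and Bdkrb2, the nitric oxide synthase Nos2, and the neurotrophic factors Bdnf, Gdnf and Artn. All 9 were listed, among 22609 gene symbols, in each of 31 bulk RNA-seq libraries. Adult male C57BL/6J mice were injected in the left MM, and the same muscle was dissected and sequenced; no group carried a genetic change. CFA is an oil emulsion with killed mycobacteria that provokes inflammation, and Col degrades collagen and so damages the tissue. The CFA experiment held 3 vehicle libraries, 3 libraries at 1d post-CFA and 3 at 5d post-CFA. The Col experiment held 3 vehicle libraries, 4 libraries labelled 0.2U 1C, 4 labelled 0.2U RPC, 4 at 2d post-10U Col, 3 at 6d post-10U Col and 4 at 12d post-10U Col. Days are those of the labels; the study's methods give 1 and 14 days for the groups labelled 2d and 12d, and the labels give no day for the 0.2U groups or for either vehicle. Each treated group was compared with the vehicle of its own experiment, so the 5 Col groups shared 3 control libraries and both CFA groups shared the other 3.

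These genes belong to 4 signalling routes between injured tissue and sensory nerve endings. Cyclooxygenases, COX-1 from Ptgs1 and the inducible COX-2 from Ptgs2, turn arachidonic acid into prostaglandin H2, and microsomal prostaglandin E synthase 1 from Ptges converts this to prostaglandin E2, which lowers the firing threshold of nociceptors. Bradykinin acts on the B2 receptor (Bdkrb2), which many cells carry at rest, and its des-Arg fragments act on the B1 receptor (Bdkrb1), which is known for its induction in injured tissue. Inducible nitric oxide synthase (Nos2) makes nitric oxide from arginine, above all in activated macrophages. Brain-derived neurotrophic factor (Bdnf) binds TrkB (Ntrk2), while glial cell line-derived neurotrophic factor (Gdnf) and artemin (Artn) act through Ret together with the co-receptors Gfra1 and Gfra3; sensory and motor axons respond to these proteins. In whole muscle, fewer cells of a type and less RNA per cell cannot be told apart.

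Libraries held 14843778 to 29076671 counts on genes (median 20834472). Below, a level is a count set relative to the library total (CPM) after scaling by the trimmed mean of M values (TMM), unless it is given per length. Before TMM scaling, 10 counts were worth 0.344 to 0.674 CPM in these libraries. Scaling divides such a value by the library's factor, which ran from 0.628 to 1.37. Counting error alone is 31.6% of a value of 10 counts and 10.0% of a value of 100. A gene was called too low to judge in a comparison where fewer than 3 libraries reached 10 counts. The 6 skeletal muscle markers were detected in every group, at 27290 to 160900 CPM in sum. RNA of salivary gland, which lies close to the MM, varied much more: 7 gland markers summed to 143000 to 180300 CPM in all 3 libraries at 5d post-CFA, to 90.5 to 162300 CPM in the Col vehicle and to 11.3 to 33.7 CPM at 6d post-10U Col. The part of gland RNA in the results below was not tested. Ambiguous reads, which aligned to a single place but overlapped several genes, were taken as a share of counted plus ambiguous reads. They made up 0.675 to 0.875% in the 11 libraries of 10U Col and 0.147 to 0.317% in the other 20. Whether both sets were counted with the same strand setting is not given in the sources used here. For a gene with an exon overlapping another gene on the other strand, 10U Col and vehicle values may therefore not be on one footing. The Col vehicle was among the other 20 libraries, at 0.166 to 0.236%. Whether handling also differed for genes without such an overlap was not tested, and it cannot be told apart from treatment. No exon of the 9 genes overlapped an exon of another gene in the mm9 annotation, and 0% of their 50-base windows were shared with transcripts of other genes. As the 12d libraries had the higher share of ambiguous reads too, 10U Col at 12d is used below as a second reference for 2d and 6d.

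In vehicle-treated muscle the order of levels was taken per exon length, as CPM per kilobase (RPKM). Nos2 came first, with a median of 4.03 RPKM over 6 vehicle libraries (2.58 to 6.44). Ptgs1 (2.21 RPKM, 1.84 to 2.79) and Ptges (1.74 RPKM, 0.739 to 2.46) followed. Gdnf had a median of 0.745 RPKM, Bdkrb2 of 0.366 RPKM and Bdnf of 0.222 RPKM. Ptgs2 (0.112 RPKM), Bdkrb1 (0.105 RPKM) and Artn (0.0704 RPKM) closed the order. The ranges of every pair of neighbours in this order overlapped. Between the vehicle groups of the CFA and Col experiments, 0 of 7 tested members differed (edgeR, adjusted p under 0.05; 0.0426% of all genes did, and 0 members passed at an unadjusted p under 0.05 or with DESeq2). Bdnf alone kept apart, with 2.18, 1.87 and 1.44 CPM in the CFA vehicle and 1.002, 0.931 and 1.16 CPM in the Col vehicle, where 5.01% of all genes had groups that did not overlap (log2 fold change -0.79, SE 0.40, adjusted p = 1.0). With the replicate number as a block, 0 genes rather than 6 passed between the vehicles.

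**Figure D1:**
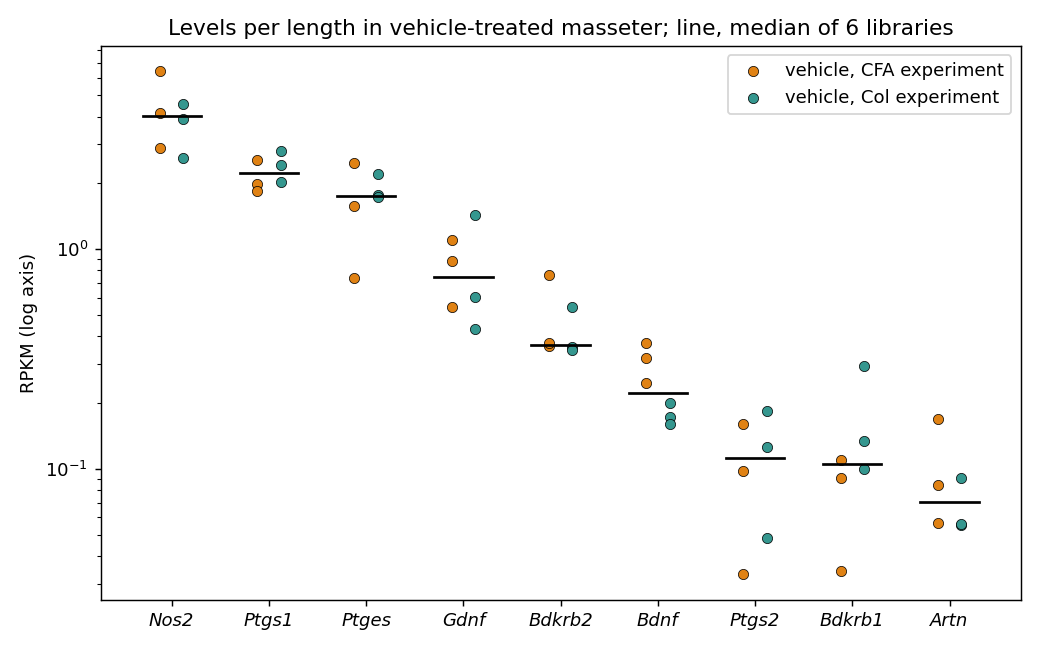
Level of each member per exon length (RPKM, log axis) in the 6 vehicle libraries, coloured by experiment, with the median as a line. Nos2 stands highest at a median of 4.03 RPKM and Artn lowest at 0.0704 RPKM, and each gene's points overlap those of its neighbours.

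All calls of members against vehicle fell at 6d post-10U Col. Over 7 vehicle comparisons the 9 genes gave 63 pairs, of which 51 were testable and 12 too low: Artn was too low in all 7, and Bdkrb1 in 5. At 6d post-10U Col, 4 of 8 tested members passed an adjusted p under 0.05, 3 higher (Ptgs2, Gdnf and Bdnf; 14% of all genes were higher) and 1 lower (Nos2; 13.3% were lower), against 27.3% of 14281 genes in either direction. Groups did not overlap for 6 of the 9 members, 5 above the vehicle and 1 below it, and for 47.2% of all genes. At 2d post-10U Col 0 of 8 members passed (2.22% of all genes), with Ptgs2 and Gdnf at an unadjusted p under 0.05 and both called by DESeq2 (23.1% of all genes). At 12d post-10U Col 0 of 7 passed (1.23%), with Bdnf and Ptgs2 at an unadjusted p under 0.05 and 0 called by DESeq2. At 1d post-CFA 0 of 7 passed, as did 0% of all genes (0 of 13944 with edgeR, 588 at an unadjusted p under 0.05, 56 with DESeq2), and Ptgs2 was the 1 member at an unadjusted p under 0.05. At 5d post-CFA 0 of 7 passed (1.11%), with Bdnf and Gdnf at an unadjusted p under 0.05 and Gdnf called by DESeq2 (6.36% of all genes). In the 0.2U 1C group 0 of 7 passed (0%; 1819 genes at an unadjusted p under 0.05, 519 with DESeq2), and in the 0.2U RPC group 0 of 7 (0%; 1923 and 443 genes). Nos2 in 0.2U 1C and Gdnf in 0.2U RPC were the members at an unadjusted p under 0.05 there, and DESeq2 called 0 members in either group.

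**Figure D2:**
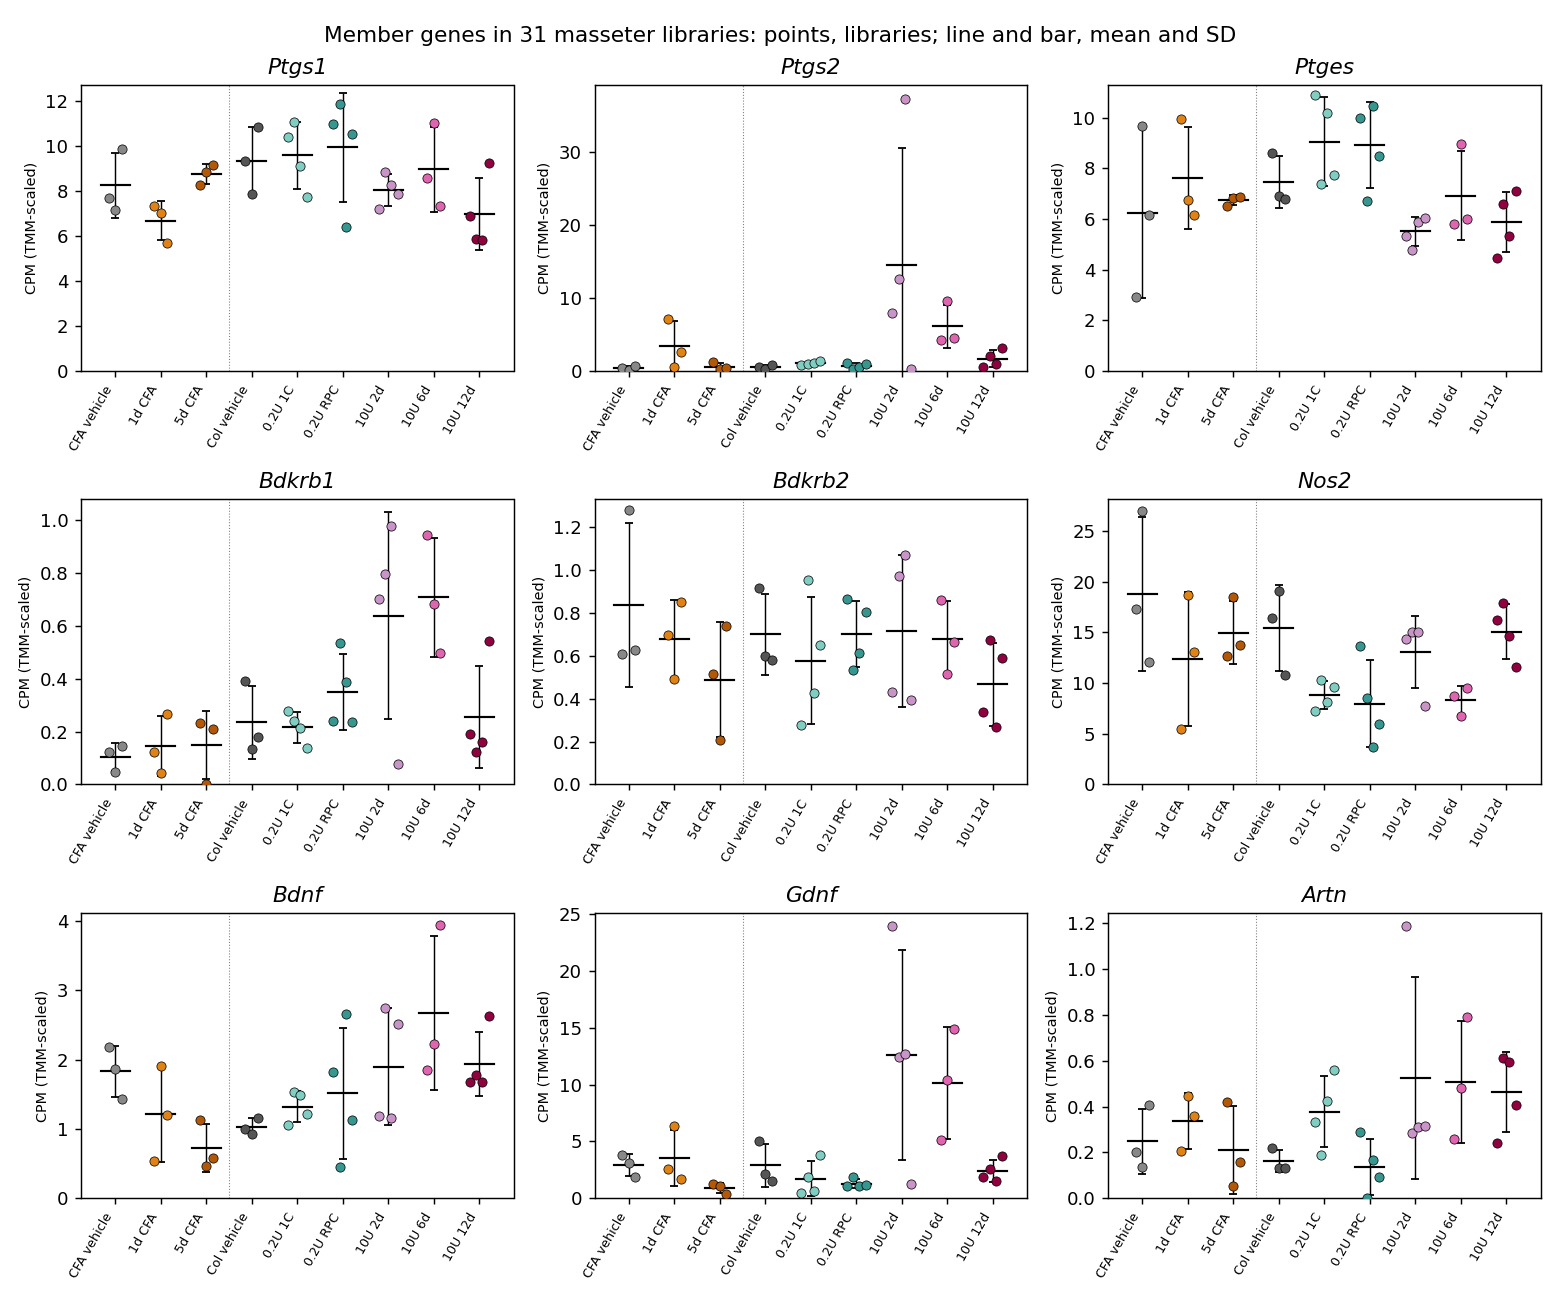
TMM-scaled CPM of each member in every library (points), with the group mean (line) and SD (bar); each panel has its own axis from 0, and the dotted line parts the CFA from the Col experiment. Ptgs2, Gdnf and Bdkrb1 rise above the vehicle points in most libraries at 10U 2d and 10U 6d, while 1 library of the 10U 2d group stays low for all of them.

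**Figure D3:**
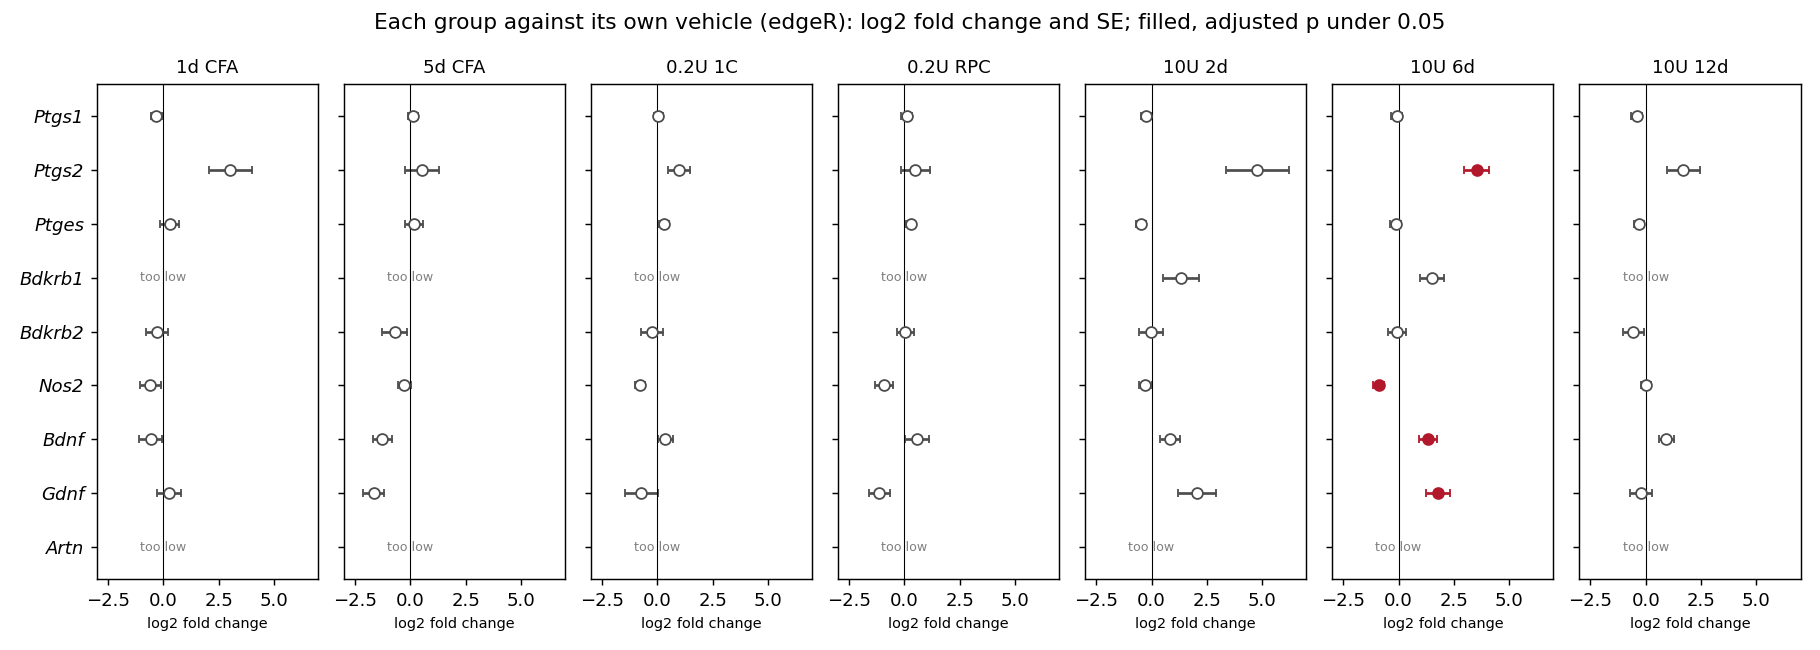
Log2 fold change against vehicle with its SE for every member in 7 comparisons; filled red points passed an adjusted p under 0.05 (edgeR), and "too low" marks members without 10 counts in 3 libraries. The 4 filled points all lie in the 10U 6d panel.

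Among the 3 prostaglandin enzymes, Ptgs2 was the one that passed in a vehicle comparison. Its level in vehicle muscle was close to the limit of counting, 0.404, 0.137 and 0.662 CPM in the CFA vehicle and 0.523, 0.1995 and 0.761 CPM in the Col vehicle, or 3 to 18 reads per library. At 6d post-10U Col the 3 libraries held 4.17, 9.52 and 4.52 CPM. All 3 lay above every vehicle library, and the level rose 11.5-fold (log2 fold change 3.52, SE 0.56, adjusted p = 0.00716). Against 12d post-10U Col the change at 6d was smaller, 1.87 (SE 0.57, adjusted p = 0.0473), and that at 2d was 3.08 (SE 1.14, adjusted p = 0.0864). At 2d post-10U Col the libraries held 7.98, 12.7, 37.3 and 0.196 CPM. Replicates 1 to 3 were above all vehicle libraries and replicate 4, with 5 reads, was just below the lowest Col vehicle library, so that the log2 fold change of 4.77 had an SE of 1.43 and an adjusted p of 0.0758. Of its group, replicate 4 also had the highest gland sum (135100 CPM) and skeletal muscle sum (56970 CPM). Its macrophage sum (497 CPM) was the lowest. The part of this makeup in its low Ptgs2 value was not tested. Without replicate 4 the change was 5.18 (adjusted p = 0.00333), and without any other single library the adjusted p was 0.1115 to 0.238. Replicate 4 was singled out for its low values, so the smaller p is no support for a rise. At 12d post-10U Col the values were 0.481, 2.02, 0.970 and 3.08 CPM, 3 of 4 above the vehicle range (log2 fold change 1.71, SE 0.73, adjusted p = 0.283).

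After CFA, Ptgs2 also had a wide spread between libraries. At 1d post-CFA the libraries held 7.16, 0.534 and 2.59 CPM, 2 of 3 above all vehicle libraries, and the log2 fold change of 3.03 (SE 0.96) had an unadjusted p of 0.0149 and an adjusted p of 0.924. At 5d post-CFA they held 1.12, 0.261 and 0.317 CPM, which overlapped the vehicle (log2 fold change 0.52, SE 0.77, adjusted p = 0.825). In the 0.2U 1C group all 4 libraries, at 0.779, 0.859, 1.01 and 1.30 CPM, lay just above the vehicle, as did 10.3% of all genes above or below it (log2 fold change 0.97, SE 0.49, adjusted p = 0.461). In the 0.2U RPC group the values of 1.10, 0.229, 0.499 and 0.942 CPM overlapped the vehicle (log2 fold change 0.49, SE 0.65, adjusted p = 0.758). Over all 31 libraries Ptgs2 spanned 273-fold, the widest range of the members that were above 0 throughout.

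Ptgs1 stayed within 5.67 to 11.8 CPM in the 31 libraries, a 2.09-fold range and the narrowest of the 9 genes. Its log2 fold changes against vehicle lay between -0.40 (SE 0.25, 12d post-10U Col, adjusted p = 0.443) and 0.12 (SE 0.22, 5d post-CFA, adjusted p = 0.860). At 6d post-10U Col, where Ptgs2 rose, Ptgs1 held 8.55, 11.02 and 7.30 CPM against 9.32, 7.85 and 10.8 CPM in the vehicle, with overlapping groups (log2 fold change -0.09, SE 0.24, adjusted p = 0.795). Ptges ranged from 2.91 to 10.9 CPM, and its log2 fold changes lay between -0.47 (SE 0.24, 2d post-10U Col, adjusted p = 0.197) and 0.29 (SE 0.22, 0.2U 1C, adjusted p = 0.607). At 2d post-10U Col the 4 Ptges values, 5.34, 4.79, 5.87 and 6.04 CPM, all lay below the vehicle's 8.63, 6.92 and 6.80 CPM, as groups did not overlap for 24.2% of all genes. Neither gene passed in any vehicle comparison with edgeR or DESeq2.

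The bases upstream of the start sites of Ptgs2, Ptgs1 and Gdnf are shown because Ptgs2 and Gdnf were both higher at 6d post-10U Col, where Ptgs1 was not called. They come from RefSeq, build GRCm38, a later build than the mm9 of the counts, and cover 250 bases before each start; entries were found for 7 of 9 members, with 14 start sites, and Bdkrb1 and Nos2 had none. Capitals mark matches on either strand to any of 5 motifs: TATAAA, TGACGTCA (cAMP response element), TGANTCA (AP-1), TTNCGCAA (C/EBP) and GGGCGG (GC box). Ptgs2 lies at chr1:150099781-150100030 (+), Ptgs1 at chr2:36230176-36230425 (+), and the Gdnf starts at chr15:7809798-7810047 (+) and chr15:7813477-7813726 (+).
Ptgs2: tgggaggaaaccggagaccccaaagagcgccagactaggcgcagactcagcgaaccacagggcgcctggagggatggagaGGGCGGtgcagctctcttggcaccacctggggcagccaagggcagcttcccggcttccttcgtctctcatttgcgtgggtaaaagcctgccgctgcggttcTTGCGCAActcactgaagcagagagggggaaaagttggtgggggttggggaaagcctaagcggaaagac
Ptgs1: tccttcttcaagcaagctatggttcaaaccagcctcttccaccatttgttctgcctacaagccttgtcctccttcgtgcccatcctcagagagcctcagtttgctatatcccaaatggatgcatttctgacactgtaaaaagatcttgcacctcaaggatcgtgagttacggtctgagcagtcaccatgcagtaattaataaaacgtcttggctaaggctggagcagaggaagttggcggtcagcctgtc
Gdnf start 1: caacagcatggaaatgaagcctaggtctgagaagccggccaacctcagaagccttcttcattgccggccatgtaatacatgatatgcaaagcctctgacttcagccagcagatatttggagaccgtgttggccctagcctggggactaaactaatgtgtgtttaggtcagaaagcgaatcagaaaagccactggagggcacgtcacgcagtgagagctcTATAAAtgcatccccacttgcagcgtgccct
Gdnf start 2: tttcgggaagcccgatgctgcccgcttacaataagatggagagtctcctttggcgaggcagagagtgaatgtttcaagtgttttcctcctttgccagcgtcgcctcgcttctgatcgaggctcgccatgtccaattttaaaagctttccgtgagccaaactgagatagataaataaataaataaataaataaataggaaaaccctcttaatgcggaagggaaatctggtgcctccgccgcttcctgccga
The Ptgs2 window held a GC box 170 to 165 bases upstream and the C/EBP letters 69 to 62 bases upstream. Of 32851 mouse promoter windows of this length, 32.7% held the GC box and 0.67% the C/EBP letters. The first Gdnf window held TATAAA 31 to 26 bases upstream, as 12.4% of windows did anywhere in their length. The Ptgs1 window and the second Gdnf window held none of the 5, which says only that these letters are not in this stretch. TGANTCA occurred in 6.75% and TGACGTCA in 1.55% of all windows.

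Of 13 genes of prostaglandin synthesis and breakdown, all tested at 6d post-10U Col, 5 rose and 1 fell (14% and 13.3% of all genes; median log2 fold change 0.66, all genes 0.01). Beside Ptgs2, Hpgds, the haematopoietic prostaglandin D synthase, rose from 0.828 to 2.87 CPM in the vehicle to 10.6 to 21.2 CPM (log2 fold change 3.36, SE 0.52, adjusted p = 0.00652). Ptgr1 (log2 fold change 1.39) and Hpgd (1.19), which break prostaglandins down, and Ptges3 rose as well. Ptgds, the lipocalin-type prostaglandin D synthase, fell at 2d, 6d and 12d post-10U Col (log2 fold changes -4.80, -3.61 and -4.28), from 7.06 to 31.2 CPM in the vehicle to 1.08 to 2.36 CPM at 6d. Against 12d post-10U Col the Ptgds change was -0.54 at 2d (adjusted p = 0.535) and 0.68 at 6d (adjusted p = 0.336), and that of Hpgds at 6d was 2.17 (adjusted p = 0.0442). Ptgr1 (0.95, adjusted p = 0.180) and Hpgd (0.96, adjusted p = 0.199) were not called at 6d against 12d. None of these genes passed after CFA or 0.2U Col, where 1.11% of all genes passed at 5d post-CFA and 0% in the other groups.

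Of the kinin receptors, Bdkrb1 was near the limit of detection: 7 of 31 libraries reached 10 reads, and 6 of those were 10U Col libraries at 2d or 6d. The 2d post-10U Col libraries held 0.701, 0.798, 0.979 and 0.0785 CPM and the 6d libraries 0.945, 0.684 and 0.498 CPM, against 0.392, 0.133 and 0.179 CPM in the vehicle. All 3 libraries at 6d and 3 of 4 at 2d were above the vehicle, and replicate 4 at 2d, with 2 reads, was below it. The log2 fold change was 1.5 at 6d (SE 0.55, unadjusted p = 0.0269, adjusted p = 0.0763) and 1.33 at 2d (SE 0.83, adjusted p = 0.291; 1.71 without replicate 4, adjusted p = 0.0534). The vehicle libraries held 9, 2 and 4 reads. In both comparisons Bdkrb1 was thus tested only because 3 treated libraries reached 10 reads. Its p-values against vehicle are therefore no support for a rise. At 12d the values were 0.192, 0.122, 0.162 and 0.543 CPM, within or near the vehicle range. After CFA no library passed 0.268 CPM, or 6 reads, and the 8 libraries of 0.2U Col lay between 0.140 and 0.535 CPM; changes of Bdkrb1 were not detectable at this depth in those groups or at 12d. Against 12d post-10U Col the change was 1.39 at 6d (adjusted p = 0.0845) and 1.19 at 2d (adjusted p = 0.261).

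Bdkrb2 was also low, at 0.209 to 1.28 CPM, with 10 reads or more in 23 of 31 libraries. Its groups overlapped in all 7 vehicle comparisons. The log2 fold changes lay between -0.71 (SE 0.57, 5d post-CFA, adjusted p = 0.660) and 0.03 (SE 0.39, 0.2U RPC, adjusted p = 0.977), and at 6d post-10U Col the change was -0.08 (SE 0.42, adjusted p = 0.904), its direction turning to 0.52 (adjusted p = 0.350) against 12d. With SEs of 0.39 to 0.57, smaller changes could not be resolved in this gene. Of 12 genes of kinin formation, breakdown and signalling, 7 were tested at 6d post-10U Col and 2 fell, where 13.3% of all genes fell (median log2 fold change -0.68, all genes 0.01). Cpm, a carboxypeptidase that trims bradykinin to its B1 form, fell from 15.3 to 19.4 CPM in the vehicle to 4.42 to 7.22 CPM (log2 fold change -1.64, SE 0.26, adjusted p = 0.00673). Klk1, tissue kallikrein and a salivary gland product, had 2.22 to 1294 CPM in the vehicle and 0.958 to 5.23 CPM at 6d, overlapping groups (log2 fold change -7.68, adjusted p = 0.0281), and moved with the gland sums given above. Against 12d the change at 6d was -1.26 for Cpm (adjusted p = 0.0205) and -2.23 for Klk1 (adjusted p = 0.115).

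Nos2 was the one member with a call in the lower direction. In the vehicle libraries it stood at 16.4, 19.1 and 10.8 CPM (Col) and 17.3, 27 and 12.1 CPM (CFA). At 6d post-10U Col the 3 libraries held 8.68, 6.74 and 9.54 CPM. All were below every vehicle library, and the level fell 1.87-fold (log2 fold change -0.90, SE 0.26, adjusted p = 0.0376). Against 12d post-10U Col, at 16.3, 17.9, 14.6 and 11.5 CPM, the change at 6d was -0.88 (SE 0.20, adjusted p = 0.0230). At 12d itself Nos2 was level with the vehicle (log2 fold change 0.00, SE 0.22, adjusted p = 0.997), and at 2d, with 14.4, 14.99, 15.1 and 7.77 CPM, the groups overlapped (log2 fold change -0.28, SE 0.29, adjusted p = 0.525).

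The 0.2U 1C libraries held 7.29, 10.3, 8.18 and 9.59 CPM of Nos2, all below the vehicle (log2 fold change -0.79, SE 0.24, unadjusted p = 0.0112, adjusted p = 0.280). In that comparison groups did not overlap for 10.3% of all genes. The 0.2U RPC libraries held 13.6, 8.56, 3.72 and 5.94 CPM, 3 of 4 below it (log2 fold change -0.92, SE 0.42, adjusted p = 0.389). After CFA both groups overlapped the vehicle, at 5.48, 18.7 and 13.03 CPM on 1d (log2 fold change -0.58, SE 0.47, adjusted p = 0.924) and 12.7, 18.5 and 13.7 CPM on 5d (log2 fold change -0.27, SE 0.29, adjusted p = 0.751). No group of libraries stood above its vehicle for Nos2. The 5 endothelial markers summed to 563 to 670 CPM at 6d post-10U Col and 676 to 933 CPM in the Col vehicle, while the 8 macrophage markers summed to 1015 to 1990 CPM and 89.7 to 404 CPM. Their part in the Nos2 result was not tested. Of 13 genes of the nitric oxide and arginine list, 12 were tested at 6d and 1 rose and 4 fell (14% and 13.3% of all genes; median log2 fold change -0.30, all genes 0.01). Nos1, the neuronal type synthase that muscle fibres carry (log2 fold change -1.54, SE 0.35, adjusted p = 0.0198), Nos3, the endothelial type (-0.96, SE 0.19, adjusted p = 0.0144), and Gucy1b3, a subunit of the nitric oxide receptor guanylate cyclase (-0.79, SE 0.23, adjusted p = 0.0389), fell with Nos2. Nos3 shares exon sequence with a neighbour on the other strand. Ddah1, which degrades an inhibitor of these synthases, rose from 6.45 to 19.0 CPM to 29.6 to 51.8 CPM (1.80, SE 0.38, adjusted p = 0.0168). With 12d post-10U Col as reference, the 6d changes of Nos3 (-0.82, adjusted p = 0.0273), Gucy1b3 (-0.92, adjusted p = 0.0166) and Ddah1 (1.64, adjusted p = 0.0389) passed and that of Nos1 did not (-1.10, adjusted p = 0.0693).

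Of the neurotrophic factors, Gdnf had the widest change. At 6d post-10U Col the libraries held 5.16, 10.4 and 14.9 CPM against 5.01, 2.13 and 1.52 CPM in the vehicle. All 3 were above the vehicle, the lowest only just, and the level rose 3.44-fold (log2 fold change 1.78, SE 0.54, adjusted p = 0.0456). At 2d post-10U Col the values were 23.9, 12.4, 12.7 and 1.29 CPM. Replicates 1 to 3 were above the vehicle and replicate 4 below it, as for Ptgs2. The log2 fold change was 2.07 (SE 0.86, adjusted p = 0.138). Without replicate 4, singled out for its low values, it was 2.44 (adjusted p = 0.0109). Without any other single library the adjusted p was 0.233 to 0.301. At 12d Gdnf stood at 1.88, 2.57, 1.51 and 3.71 CPM, 3 of 4 libraries within the vehicle range and replicate 3 just below it (log2 fold change -0.21, SE 0.49, adjusted p = 0.856). Against 12d post-10U Col, Gdnf was higher at 6d (2.05, SE 0.42, adjusted p = 0.0174) and the change at 2d was 2.31 (SE 0.71, adjusted p = 0.0613), where 26.4% and 8.75% of all genes passed.

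In the other groups Gdnf was level with or under its vehicle. At 5d post-CFA the libraries held 1.22, 1.04 and 0.423 CPM against 3.83, 3.10 and 1.91 CPM. All 3 were below the vehicle, as were groups apart for 19.7% of all genes. The log2 fold change was -1.66 (SE 0.47, edgeR adjusted p = 0.156). DESeq2 gave an adjusted p of 0.0377. With edgeR it was 0.0187 without CFA vehicle replicate 3, a fit that called 2162 genes rather than 155. Without any other single library it was 0.315 to 0.4235. The gland sum in the 3 libraries at 5d post-CFA was 143000 to 180300 CPM and in the CFA vehicle 107 to 16650 CPM. At 1d post-CFA the values of 2.54, 6.36 and 1.74 CPM overlapped the vehicle (log2 fold change 0.27, SE 0.54, adjusted p = 0.970). The 0.2U RPC libraries held 1.05, 1.91, 1.05 and 1.18 CPM, 3 of 4 below the vehicle (log2 fold change -1.14, SE 0.46, unadjusted p = 0.0402, adjusted p = 0.354), with gland sums of 29310 to 324200 CPM. The 0.2U 1C libraries held 0.501, 1.91, 0.637 and 3.82 CPM (log2 fold change -0.73, SE 0.75, adjusted p = 0.689).

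Bdnf moved less. The 6d post-10U Col libraries held 1.85, 2.23 and 3.94 CPM and the Col vehicle 1.002, 0.931 and 1.16 CPM. All 3 were above the vehicle, and the level rose 2.53-fold (log2 fold change 1.34, SE 0.40, adjusted p = 0.0442). At 12d all 4 libraries, at 1.68, 1.77, 1.67 and 2.62 CPM, were above it too, as groups were apart for 17% of all genes (log2 fold change 0.93, SE 0.35, adjusted p = 0.232). At 2d they held 1.19, 2.74, 1.16 and 2.51 CPM (log2 fold change 0.83, SE 0.46, adjusted p = 0.238). All 11 libraries of 10U Col except 1 at 2d thus read above the highest Col vehicle value, but the range overlapped that of the CFA vehicle, and against 12d the 6d change was 0.44 (SE 0.33, adjusted p = 0.325). At 5d post-CFA the values were 1.12, 0.469 and 0.582 CPM, all below 2.18, 1.87 and 1.44 CPM in the vehicle (log2 fold change -1.27, SE 0.43, unadjusted p = 0.0210, adjusted p = 0.240), and at 1d 0.532, 1.91 and 1.21 CPM (-0.58, SE 0.53, adjusted p = 0.931). Groups did not overlap for 19.7% of all genes at 5d post-CFA. The 0.2U groups overlapped the vehicle, with log2 fold changes of 0.36 (SE 0.32, adjusted p = 0.652) in 1C and 0.57 (SE 0.55, adjusted p = 0.655) in RPC.

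Artn was too low to judge in all 7 vehicle comparisons: 0 to 22 reads per library, at most 1.19 CPM, and 10 reads or more in 8 of 31 libraries. Every library at 2d, 6d and 12d post-10U Col, at 0.241 CPM or more, read above the Col vehicle at 0.218, 0.133 and 0.134 CPM, which stands for 2 to 5 reads each. Groups did not overlap for 24.2%, 47.2% and 17% of all genes at 2d, 6d and 12d. With no filter on low counts the log2 fold change was 1.58 at 2d (adjusted p = 0.211), 1.59 at 6d (adjusted p = 0.114) and 1.49 at 12d (adjusted p = 0.276), and against 12d post-10U Col it was 0.10 at 2d and 0.13 at 6d (adjusted p = 0.911 and 0.854). These groups also differed from their vehicle in the share of ambiguous reads. Of 8 neurotrophin and GDNF family ligands, 5 were tested at 6d post-10U Col, and Bdnf and Gdnf were the 2 that rose (14% of all genes did; median log2 fold change -0.004, all genes 0.006). Of 10 receptors for them, 9 were tested and 1 rose and 2 fell, near the 14% and 13.3% of all genes that did (median log2 fold change -0.70, all genes 0.01). Gfra3, the artemin co-receptor, fell from 1.26 to 3.92 CPM in the vehicle to 0.274 to 0.581 CPM (log2 fold change -2.76, SE 0.55, adjusted p = 0.0138). Ntrk2, which codes for the Bdnf receptor TrkB, fell from 29.2 to 47.0 CPM to 6.74 to 14.4 CPM (-1.88, SE 0.32, adjusted p = 0.00918). Ngfr, the low-affinity neurotrophin receptor, rose from 3.13 to 5.80 CPM to 7.35 to 15.02 CPM (1.28, SE 0.34, adjusted p = 0.0321). With 12d as reference, Gfra3 was called at 6d (-1.95, adjusted p = 0.0409), and Ntrk2 (-0.81, adjusted p = 0.0536) and Ngfr (1.12, adjusted p = 0.0680) were not. The 6 Schwann cell markers summed to 79.9 to 237 CPM at 6d and 372 to 1357 CPM in the vehicle. The part of Schwann cell RNA in the receptor results was not tested. None of these genes passed after CFA or 0.2U Col. There 1.11% of all genes passed at 5d post-CFA and 0% at 1d post-CFA and in both 0.2U groups.

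Of the 4 calls at 6d post-10U Col, that of Ptgs2 was made in 6 of 6 fits that left out 1 library (adjusted p 0.00719 to 0.0322), and those of Bdnf, Gdnf and Nos2 were each made in 1 of 6. Bdnf passed without Col vehicle replicate 3 (adjusted p = 0.0460) and reached an adjusted p of 0.0765 to 0.134 without any other library. Gdnf passed without Col vehicle replicate 1 (adjusted p = 0.0270; 0.0605 to 0.136 without any other library). Nos2 passed without Col vehicle replicate 3 (adjusted p = 0.0111; 0.0696 to 0.148 without any other library). The log2 fold changes kept their sign in all of these fits. With no filter on low counts Bdnf reached an adjusted p of 0.0525, and in 1 fit over all libraries Gdnf reached 0.0693 and Nos2 0.0845.

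Between 6d and 2d post-10U Col, 0 of 9 members differed (edgeR; 8.73% of all genes did; 0 members at an unadjusted p under 0.05 or with DESeq2). The spread at 2d was wide: the log2 fold change of 6d over 2d was -1.25 for Ptgs2 (SE 1.13, adjusted p = 0.543) and -0.28 for Gdnf (SE 0.77, adjusted p = 0.860). For Nos2 it was -0.63 (SE 0.27, adjusted p = 0.191), and without replicate 4 at 2d -0.81 (adjusted p = 0.0136). Without any other single library the Nos2 adjusted p was 0.268 to 0.506.

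To ask whether CFA and Col acted differently, the change at 5d post-CFA was set against the change at 6d post-10U Col, each over its own vehicle, as an interaction. Of 9 members 2 differed (11.3% of all genes), Bdnf by -2.60 on the log2 scale (SE 0.59, adjusted p = 0.0206) and Gdnf by -3.43 (SE 0.78, adjusted p = 0.0206). Both were below their vehicle in all 3 libraries at 5d post-CFA and above it in all 3 at 6d post-10U Col. Groups did not overlap for 19.7% and 47.2% of all genes in these comparisons. Each difference stayed past the threshold in 11 of 12 fits that left out 1 library, Bdnf reaching an adjusted p of 0.0507 without CFA 5d replicate 3 and Gdnf 0.0539 without 10U 6d replicate 2. Ptgs2 differed by -3.0 (SE 1.01, edgeR adjusted p = 0.0763). DESeq2 gave it an adjusted p of 0.0251, where 18.6% of all genes passed. With edgeR the Ptgs2 adjusted p was 0.0370 without CFA 5d replicate 1 and 0.0540 to 0.1835 without any other single library. Nos2 differed by 0.64 (SE 0.41, adjusted p = 0.326). The groups also differed in day, in gland RNA and in the share of ambiguous reads, and these cannot be told apart from the agent. For Bdnf the vehicle groups themselves stood apart (log2 fold change of Col over CFA vehicle -0.79, SE 0.40), which enters the difference. Against 12d post-10U Col the 6d change was 0.44 for Bdnf (edgeR adjusted p = 0.325) and 2.05 for Gdnf (adjusted p = 0.0174). Early on, 1d post-CFA against 2d post-10U Col, 0 of 9 members differed (0.0946% of all genes; 0 at an unadjusted p under 0.05 or with DESeq2). There the Ptgs2 difference was -1.74 (SE 1.77, adjusted p = 0.818) and that of Gdnf -1.78 (SE 1.11, adjusted p = 0.760), so differences of several fold were within the error.

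Across the 31 libraries the levels of some members went together. These correlations, over log2(CPM + 0.5), describe libraries that share groups and tissue makeup and carry no test. Ptgs2 went with Bdkrb1 (r = 0.731) and with Gdnf (r = 0.699), and Gdnf with Bdkrb1 (r = 0.598), whereas Ptgs1 and Ptgs2 were not related (r = -0.063). Bdkrb1 reached 10 reads in 7 of 31 libraries, so its correlations here and below rest on low counts. Over 15526 genes those most like Ptgs2 were Itgb1 (r = 0.949), Ankrd1 (0.917) and Msn (0.917), and those most like Gdnf were 2900073G15Rik (0.854), Rsl1d1 (0.852) and Itga7 (0.845). Nos2 was most like Gimap6 (0.837), Pdgfb (0.831) and Nkiras1 (0.826), Bdkrb1 most like Fam64a (0.882), and Bdnf most like 9230114K14Rik (0.753). Among 12 marker lists Ptgs2 went with the summed macrophage markers (r = 0.738, and 0.530 after taking off group means) and Gdnf with the satellite cell markers (0.757 and 0.541). Nos2 went with the endothelial markers (0.827 and 0.764), and Bdkrb1 went against the skeletal muscle markers (-0.823 and -0.647). Ptgs2 went against the skeletal muscle markers as much as it went with the macrophage markers (r = -0.741), and Bdkrb1 also went with the macrophage markers (r = 0.674). At 6d post-10U Col the satellite cell sum was 157 to 193 CPM and the skeletal muscle sum 31270 to 53780 CPM, against 105 to 134 and 88560 to 126600 CPM in the Col vehicle. The part of these shifts in the member results was not tested.

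**Figure D4:**
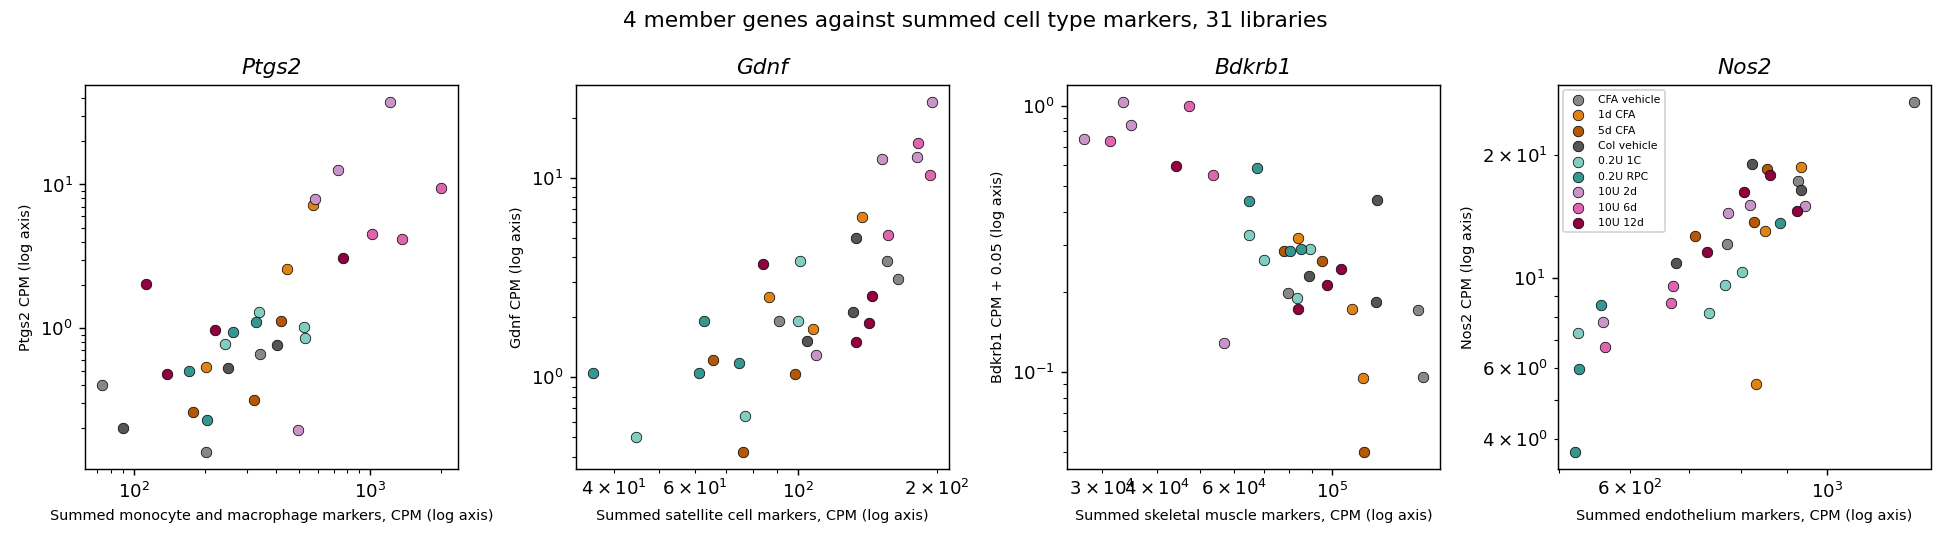
CPM of 4 members (y, log axis) against the summed CPM of the marker list chosen for each after the correlations were known (x, log axis) in 31 libraries, coloured by group; 0.05 was added to Bdkrb1 so that its library at 0 could be drawn. Ptgs2 and Gdnf climb with macrophage and satellite cell markers, Bdkrb1 falls with muscle markers, and Nos2 climbs with endothelial markers, with r of 0.738, 0.757, -0.823 and 0.827. Bdkrb1 had 22 reads or fewer in every library.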

How the data were processed

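Bulk RNA of the injected masseter muscle was measured in 31 libraries. The authors enriched mRNA with oligo-dT, made stranded libraries, aligned reads with TopHat2 to mm9 and deposited raw counts per gene made with HTSeq, per the labels and the study's methods. Lines for unassigned reads (41.7 to 58.9% of all lines' reads) were left out of library sizes. Counts were TMM-scaled, and CPM used scale factors over all libraries; RPKM divided by exon length in GENCODE vM1. Each comparison was fitted on its own libraries with edgeR 4.0.16 in R 4.3.3 (quasi-likelihood test, genes with 10 counts in at least 3 libraries, Benjamini-Hochberg adjustment, call at adjusted p under 0.05, two-sided). Alternatives were DESeq2 1.42.0, DESeq2 size factors, no filter, a replicate block, 1 fit over all libraries, a 2-fold minimum for calls, unscaled CPM, each library left out and, chosen after seeing the data, 10U Col 12d as the reference. The fits were tested on simulated data. No pair of libraries among 465 was identical. The study's methods give RNA-seq group sizes in mice, while the labels do not tie a library to a mouse, cage or day. The p-values therefore measure the spread between these samples.

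The members, the pathway and marker lists and the genes named (all members, and per list and vehicle comparison up to 4 called genes of largest absolute log2 fold change; Ptges3 was added after its values were seen) were chosen with earlier results of these data known. Depth limits precision by counting error only. Of the marker genes, Ly6g and Bpifa2 were not matched in the files. The list of prostanoid receptors is not reported here. Same-numbered libraries of the vehicle groups deviated together (r 0.112 to 0.629 over 3 pairs), and the blocked count is given there. Those at 1d post-CFA deviated together with their vehicle too (r 0.093 to 0.455), where the block called 1 gene. The labels do not say what a number marks.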

Additional observations from a re-analysis of the deposited data

Results flagged for a closer look

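For each of 36 groups of 4 libraries (9 members in 4 groups), the gap of the outermost library to its nearest was divided by the range. In 5 groups this ratio exceeded Dixon's critical value of 0.829. Chance alone marks about 1 in 20 such groups. The highest libraries of these were Bdnf at 12d post-10U Col with 2.62 CPM, Gdnf in 0.2U RPC with 1.91 CPM, Artn at 2d post-10U Col with 1.19 CPM and Bdkrb1 at 12d post-10U Col with 0.543 CPM. The last of the 5 was a lowest library, replicate 4 at 2d post-10U Col, where Nos2 stood at 7.77 CPM; the same library was the low one for Ptgs2, Gdnf and Bdkrb1.

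For Bdnf and Gdnf, the change at 5d post-CFA differed from the change at 6d post-10U Col by -2.60 and -3.43 on the log2 scale (edgeR interaction, adjusted p = 0.0206 for each), with every library at 5d post-CFA below its vehicle and every library at 6d post-10U Col above its own. Of all genes 11.3% differed in this way. Groups did not overlap for 19.7% of all genes at 5d post-CFA and 47.2% at 6d post-10U Col. Day, gland RNA and the share of ambiguous reads differed as well and cannot be told apart from the agent. The Bdnf vehicles also stood apart, as given above.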

How the results depend on the processing

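Of the 331 member log2 fold changes recomputed without leaving out a library, 303 kept their direction and side of the threshold. A missing DESeq2 adjusted p was counted there as not past the threshold. Unscaled library sizes moved 72 group means of CPM by less than their SD and 9 by more. Counts below are genes called. With DESeq2 they were 56 at 1d post-CFA (edgeR 0), 892 at 5d post-CFA (155), 519 in 0.2U 1C (0), 443 in 0.2U RPC (0), 3322, 902 and 2707 for 10U Col at 2d (319), 12d (174) and 6d over 2d (1267), 65 between vehicles (6), and 108 and 2764 for the early (14) and late (1684) difference between CFA and Col. It called 1 member at 5d post-CFA and 2 at 10U Col 2d. With DESeq2 size factors 60 genes were called at 5d post-CFA. In 1 fit over all libraries the counts were 38 at 5d post-CFA, 137 in 0.2U 1C, 4943 and 778 for 10U Col at 2d and 12d, 57 between vehicles and 97 for the early difference, with 2 members at 10U Col 2d (Ptgs2 and Gdnf) and 2 at 6d. With the replicate number as a block they were 1 at 1d post-CFA, 1 in 0.2U 1C, 10 in 0.2U RPC, 4500, 1473 and 43 for 10U Col at 2d, 6d and 12d, 2208 for 6d over 2d, 0 between vehicles and 162 for the early difference. The block called 2 members at 10U Col 2d, 1 at 6d (Ptgs2, adjusted p = 0.0392; Bdnf 0.0921, Gdnf 0.118, Nos2 0.103) and 1 for 6d over 2d (Nos2). Same-numbered libraries deviated together between the vehicles and at 1d post-CFA against its vehicle (r 0.093 to 0.455). In each of the other comparisons the lowest r was below 0, with a mean r of -0.109 to 0.201. In 0 comparisons did every library correlate best with its own number. Against 12d, 1265 genes were called at 10U Col 2d.

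Directions turned, at adjusted p of 0.249 or more, for Bdkrb2 in 0.2U RPC (-0.04 with the block, -0.023 in the fit over all libraries), Bdkrb2 at 10U Col 2d (0.14 with the block, 0.54 against 12d) and Nos2 at 12d (-0.015 with DESeq2, -0.016 with size factors, -0.049 over all libraries). Against 12d they turned for Bdnf (-0.11) and Ptgs1 (0.13) at 2d, and for Ptgs1 (0.34), Ptges (0.22) and Bdkrb2 (0.52) at 6d. The cause was not tested.

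Leaving out 1 library gave 0 to 19 genes at 1d post-CFA, 0 to 2162 at 5d post-CFA (members 0 to 1), 0 to 202 in 0.2U 1C, 0 to 1 in 0.2U RPC, 12 to 5143 at 10U Col 2d (members 0 to 2), 809 to 5835 at 6d (members 1 to 3), 41 to 600 at 12d, 126 to 4105 for 6d over 2d (members 0 to 1), 0 to 12 between vehicles, 4 to 104 for the early difference and 563 to 2658 for the late one (members 1 to 3). The highest counts came without CFA vehicle replicate 3 at 5d post-CFA and without replicate 4 at 10U Col 2d. Log2 fold changes that crossed 0 ranged, at 1d post-CFA, from -0.47 to 0.59 for Gdnf, -0.065 to 0.74 for Ptges and -0.50 to 0.14 for Bdkrb2, and at 5d post-CFA from -0.20 to 0.59 for Ptges and -0.49 to 0.057 for Nos2. In 0.2U 1C Ptgs1 ranged from -0.069 to 0.17, and in 0.2U RPC Ptgs1 from -0.028 to 0.26 and Bdkrb2 from -0.088 to 0.26. For 10U Col they were -0.29 to 0.23 for Bdkrb2 at 2d, -0.24 to 0.043 for Ptgs1 and -0.27 to 0.17 for Bdkrb2 at 6d, and -0.54 to 0.43 for Gdnf and -0.18 to 0.15 for Nos2 at 12d. Gdnf ranged from -0.66 to 0.23 for 6d over 2d, and Nos2 from -0.72 to 0.11 for the early difference. Depth limits Artn, Bdkrb1 and Bdkrb2, at 28 reads or fewer in every library.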
